A study of Homo sapiens with 6 samples.

Results

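The resting transcriptome of untreated cardiomyocytes derived from human pluripotent stem cells (hiPSC-CMs) was described from the control group, which made up 2 of the 6 RNA sequencing libraries of the series. The control libraries were chosen by the treatment label, which gives no treatment for them, and the level of a gene was taken as its FPKM (fragments scaled to transcript length and to library size) in each library and as the mean of both. The other groups were an alcohol group (2 libraries, 100 mM for 24 h) and a co-treated group (2 libraries) that received the same alcohol together with 1 μM losartan, a blocker of the angiotensin II type 1 receptor. All 6 came from H9, which is known as an embryonic stem cell line although the labels call the cells induced pluripotent, so every library stands for 1 genetic background. Cardiac differentiation was driven by small molecules that first activate and then block Wnt signalling, with the protein Activin A added in the first step. No selection of cardiomyocytes is named in the methods, and the age of the cells at harvest is not given in the sources used here.

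A cardiomyocyte contracts through the sarcomere, in which myosin heavy and light chains pull on actin under the control of the troponin complex and tropomyosin. Many of these proteins exist as paired isoforms that mark the atrium or the ventricle, or the fetal or the adult heart, and cardiomyocytes made from stem cells are known for mixed and largely fetal sets of them. The adult heart burns mainly fatty acids, whereas the fetal heart relies more on glucose.

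The control libraries carried the cardiomyocyte markers at high levels. MYL7, the atrial regulatory light chain of myosin, was the most abundant gene of all, at 14512 FPKM in control replicate 1 and 16179.8 in control replicate 2, and it held 3.52% of the summed FPKM of the control mean. Of the 6 cardiomyocyte markers used to check the label, TNNT2 (cardiac troponin T) stood at 3728 and 3615 FPKM, MYH7 (the slow myosin heavy chain of the ventricle) at 2813 and 2084, and NPPB (the precursor of B-type natriuretic peptide) at 1721 and 1233. MYL2, the ventricular regulatory light chain, stood at 2139 and 863 FPKM, and MYH6, the fast myosin heavy chain of the atrium, at 349 and 717. All 6 markers exceeded 100 FPKM in both libraries. MYL2 and MYH6 were the pair of markers whose 2 values lay more than 2-fold apart.

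The summed expected counts were 5051448 and 5034583 in the control libraries and ranged from 4898287 to 5051448 over the 6 libraries, so a gene with no count could still hold up to 3 counts, equal to 0.594 to 0.612 CPM (counts scaled to library size; this limit covers counting error only). Of 21134 genes in the series table, 17626 were above 0 FPKM in both control libraries and 19609 in at least 1. At least 1 FPKM was reached in both libraries by 13632 genes, 10 FPKM by 6126, 100 FPKM by 543 and 1000 FPKM by 36. The labels number the libraries as repeats and do not say whether they came from separate cultures, so the spread between them may be technical. The chi-square of the counts of the control pair was 4.54 per degree of freedom, beyond sampling noise, and they were kept as 2 samples.

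The RNA was concentrated in few genes. The 10 most abundant genes held 12.8% of the summed FPKM, the 30 most abundant 20.6%, and the 100 most abundant 33.2%. Sarcomere genes were among the highest single genes. After MYL7 the next of them were MYL4, the atrial essential light chain, at 5719 and 5496 FPKM, and TPM1, the cardiac tropomyosin, at 5086 and 4452. TNNC1, the calcium sensor of the troponin complex, reached 2863 and 2983 FPKM, ACTC1 (cardiac α-actin) 2669 and 1733, and MYL3 (the ventricular essential light chain) 1712 and 1849.

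Hormone and stress genes of the heart muscle were also among the 30. NPPA, the precursor of atrial natriuretic peptide, was at 3622 and 4799 FPKM. PLN (phospholamban, the brake on the calcium pump of the sarcoplasmic reticulum) was at 1529 and 1322. ANKRD1, a stretch-responsive protein of the sarcomere and nucleus, was at 1551 and 1062. The remaining genes among the 30 comprised GAPDH at 3604 and 3389 FPKM, the elongation factor EEF1A1 at 2521 and 2473, the light chains MYL9 at 1174 and 1302 and MYL6 at 1096 and 1338, and the imprinted long non-coding RNA H19 at 1755 and 1881. Ribosomal proteins (RPLP1, RPL41, RPS18, RPS2, RPS27 and RPS3A) made up 6 of the 30. RPLP1 was the highest of them, at 1970.4 and 2209 FPKM. The 85 cytosolic ribosomal protein genes held 11.6% and 12.5% of the summed FPKM, beside 11.7% and 10.8% for the sarcomere genes. Of the counts they held 3.77% and 4.14%, beside 9.91% and 8.72% for the sarcomere genes.

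**Figure D1:**
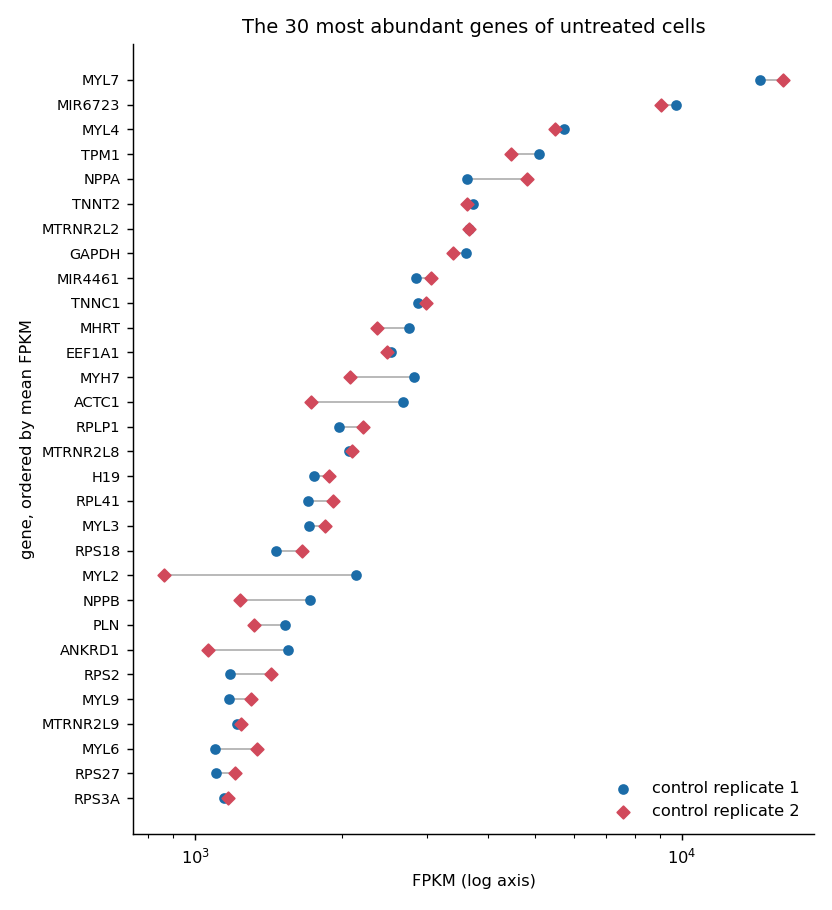
FPKM (log axis) of the 30 genes with the highest mean of the control libraries, with a circle for control replicate 1, a diamond for control replicate 2 and a line joining the values of a gene. MYL7 stands alone at 14512 and 16179.8 FPKM, and the widest line is that of MYL2, at 2139 and 863.

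Some entries near the top were short or shared sequence and were read with care. MIR6723 ranked second, at 9744 and 9081 FPKM, and MIR4461 reached 2841 and 3056. Both are listed as microRNA genes, but the libraries were not described as small RNA libraries. The symbols of the protein-coding genes of the mitochondrial genome were looked for under both naming styles (26 symbols), and 0 were listed. The MTRNR2L genes, nuclear copies of mitochondrial 16S ribosomal RNA, held 1.82% and 1.80% of the summed FPKM over 9 genes, with MTRNR2L2 at 3658 and 3653, MTRNR2L8 at 2071 and 2103.5 and MTRNR2L9 at 1221 and 1242. SNORD141A and SNORD141B had the same values, 1095 and 1148 FPKM, from 387.6 and 405.1 counts each, so reads of these copies cannot be told apart. In all, the 556 short RNA genes (microRNAs, snoRNAs and other small RNAs by symbol) held 4.23% of the summed FPKM but 0.151% of the counts. FPKM divides by length, so a short gene reaches a high FPKM with few counts.

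The upstream sequence of the cardiac genes that carried this profile is shown for a view of what surrounds their start sites. The windows hold the 120 bases before the annotated transcription start, read 5′ to 3′ on the strand of the gene, from RefSeq on GRCh38.p14. MYL7 lies at chr7:44141333-44141452, NPPA at chr1:11847784-11847903, ACTC1 at chr15:34795550-34795669 and TNNI3 at chr19:55157733-55157852, all on the minus strand. Capitals mark a CArG box (the binding motif of serum response factor) in MYL7, a TATA box in NPPA, a CArG box and then a TATA box in ACTC1, and 2 sites of the GATA motif AGATAA on the opposite strand in TNNI3.
MYL7: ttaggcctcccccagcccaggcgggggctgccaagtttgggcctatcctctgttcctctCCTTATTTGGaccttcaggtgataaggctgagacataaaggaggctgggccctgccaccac
NPPA: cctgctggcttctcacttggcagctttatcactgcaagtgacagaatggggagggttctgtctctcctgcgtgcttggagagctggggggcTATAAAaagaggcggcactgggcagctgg
ACTC1: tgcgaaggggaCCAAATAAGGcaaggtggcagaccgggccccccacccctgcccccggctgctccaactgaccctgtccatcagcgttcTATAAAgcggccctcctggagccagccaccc
TNNI3: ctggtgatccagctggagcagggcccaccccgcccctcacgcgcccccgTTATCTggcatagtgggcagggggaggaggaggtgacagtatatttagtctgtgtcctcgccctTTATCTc
The CArG box began 61 bases before the start of MYL7 and 109 before that of ACTC1, and TATAAA began 29 bases before the start of NPPA and 31 before that of ACTC1. The NPPA window also holds AAGTG, a motif of NKX2-5, once on each strand, left in lower case. MYL3 and TNNT2 had none of the motifs in these 120 bases.

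Over the whole sarcomere list, 26 of 38 genes had a window, and its 250 upstream bases were searched on both strands. A CArG box was found in 6 of the 26 (23.1%, against 1.14% of all 27305 windows) and the MEF2 motif in 7 (26.9% against 1.79%). The 6 were ACTA1, ACTC1, FHL2, LDB3, MYL7 and MYOM1. AGATAA was in 8 (30.8% against 9.37%), TATAAA in 7 (26.9% against 11.1%) and AAGTG in 5 (19.2% against 37.9%). A MEF2 motif can contain TATAAA, and 2 genes had both. These are matches of letters and were not tested as binding sites.

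The sarcomere genes held 11.7% and 10.8% of the summed FPKM. Of the 38 genes listed, 35 were at 10 FPKM or more and 32 at 100 FPKM or more in both libraries. The thick filament and Z-disc partners were well represented, with MYBPC3 (cardiac myosin-binding protein C) at 599 and 530.2 FPKM, ACTN2 (α-actinin of the Z-disc) at 595 and 464, and TTN (titin, the molecular spring) at 164 and 151. MYOM2, the M-band protein of the adult heart, was at 0.94 FPKM in both libraries, whereas MYOM1, its partner in the M-band, was at 219 and 197. MYOM3 was at 0.41 in both.

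Within chamber and maturity pairs the order of the 2 genes was the same in both control libraries for each of the 20 pairs compared. The differences below are log2 ratios of FPKM, as the mean ± SD of the 2 libraries. The forms named as atrial led in the light chains, an order that by itself does not tell the chamber or the maturity of the cells. MYL2 was below MYL7 by a log2 ratio of -3.50 ± 1.04, and MYL3 was below MYL4 by -1.66 ± 0.12. The ventricular form led in the heavy chain, in which MYH7 exceeded MYH6 by 2.27 ± 1.04, with MYH7 at 8.05 times MYH6 in control replicate 1 and 2.91 times in control replicate 2. Reads of MYH6 and MYH7 can be confused, since the 2 genes are close copies that lie side by side on chromosome 14, MYH6 at chr14:23381987-23408273 and MYH7 at chr14:23412740-23435660 (GRCh38.p14).

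The long non-coding RNA MHRT, at chr14:23415450-23417595, lies inside MYH7 on the opposite strand. It was listed at 2746 and 2369 FPKM, close to MYH7 itself at 2813 and 2084. The sources used here do not state that the counting used strand, so the reads of MHRT and MYH7 cannot be told apart.

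The list of atrial genes summed to 24118 and 26755 FPKM and that of ventricular genes to 10581 and 7973. The lead of the atrial list depended on the scaling by length. Of the counts, the atrial list held 1.76% and 1.94% and the ventricular list 2.55% and 1.93%. MYL7, MYL4 and NPPA made up most of the atrial sum. PAM, which processes peptide hormones, followed at 164 and 170.2 FPKM. The other 11 atrial genes were below 30 FPKM, among them the potassium channel gene KCNA5 at 19.2 and 17.0, SLN (sarcolipin, the calcium pump regulator of the atrium) at 4.44 and 4.73, and NR2F1, a transcription factor of atrial identity, at 0.32 and 0.26. On the ventricular list, the transcription factors IRX4 (34.6 and 40.9 FPKM) and HEY2 (25.4 and 29.4) were higher than their atrial counterparts NR2F2 (3.87 and 4.92) and NR2F1. Pacemaker genes summed to 95.1 and 108 FPKM. HCN4, the channel of the pacemaker current, made up much of this sum at 40.2 and 47.9, while among the sinus node transcription factors TBX18 was at 9.14 and 6.87, TBX3 at 4.46 and 5.95, ISL1 at 0.43 and 0.15 and SHOX2 at 0.25 in both. Whether the atrial and ventricular genes came from the same cells was not measured, since each library is a bulk sample.

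**Figure D2:**
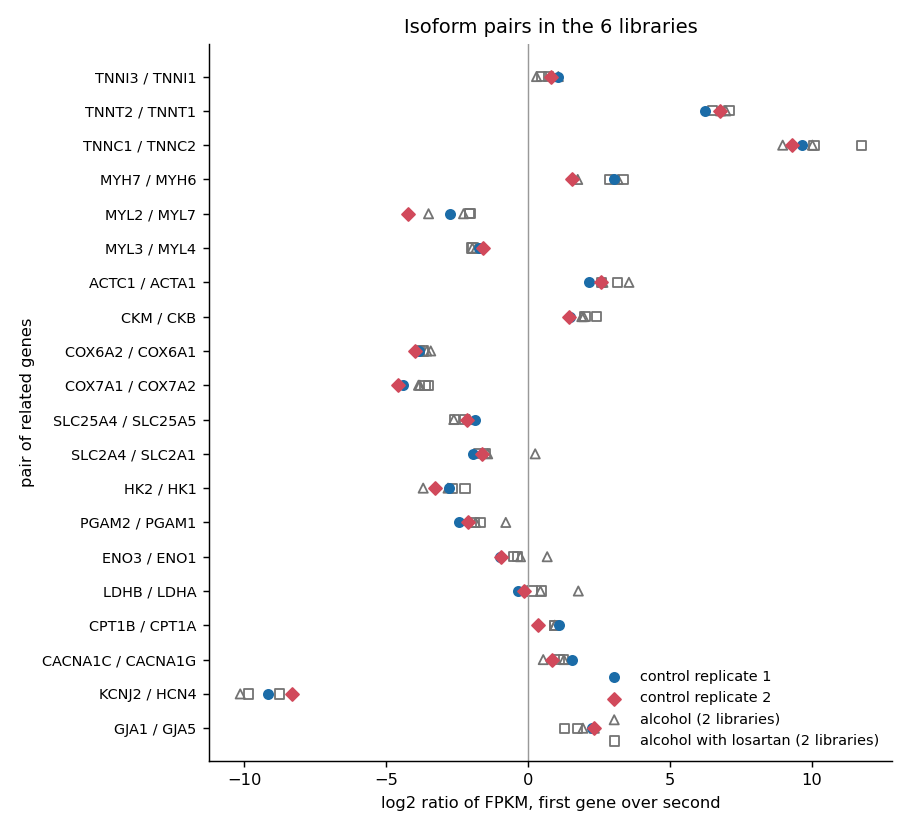
Log2 ratio of FPKM within 20 pairs of related genes, with the first gene over the second, for the control libraries (filled) and the 4 treated libraries (open; a library with the first gene at 0 is not drawn). MYL2 over MYL7 is negative and MYH7 over MYH6 positive in all 6 libraries, and both ratios lie lower in control replicate 2 than in control replicate 1.

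In the thin filament, the adult form of troponin I, TNNI3, was at 672 and 513 FPKM and the fetal form, TNNI1, at 327 and 296, a log2 ratio of 0.92 ± 0.18. This order depended on the scaling by length. The deposited length was 6162 bases for TNNI1 and 866 for TNNI3, and without division by length TNNI1 was the higher, with a log2 ratio of CPM of -1.97. Cardiac TNNT2 exceeded slow skeletal TNNT1 by 6.50 ± 0.37, and ACTC1 exceeded the skeletal α-actin ACTA1, which was at 599 and 293 FPKM, by 2.36 ± 0.29.

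Calcium handling was led by PLN, followed by the pump it restrains, ATP2A2 (the gene of the SERCA2 calcium pump), at 324 and 359 FPKM, and by the sodium-calcium exchanger SLC8A1 at 239 and 223. The release channel RYR2 was at 61.5 and 58.1 and its store protein CASQ2 (calsequestrin) at 10.7 and 7.15. S100A1, a calcium sensor abundant in the adult ventricle, was at 1.02 and 0.68 FPKM, from 3 and 2 counts. Of 18 genes on the list, 14 were at 10 FPKM or more in both libraries.

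Among ion channels, the gap junction gene GJA1 (connexin 43, of the working myocardium) was at 106 and 116 FPKM and GJA5 (connexin 40, of the atrium and conduction system) at 22.6 and 23.4, a log2 ratio of 2.27 ± 0.05. KCNH2, which carries the rapid repolarizing current, was at 54.7 and 67.0. The channel gene that sets the resting potential of the adult ventricle, KCNJ2, was near 0, at 0.07 and 0.15 FPKM from 2 and 4 counts, while HCN4 was at 40.2 and 47.9. Both transient outward channel genes were similarly low, with KCND3 at 0.07 and 0.23 and KCND2 at 0.22 and 0.07. Of 24 channel genes, 9 were at 10 FPKM or more in both libraries and 4 were under 1 in both.

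The transcription factors of the heart were present at moderate and closely matched levels. TBX20 was at 148 and 149 FPKM, NKX2-5 at 146 and 142, HAND2 at 89.0 and 96.2, and GATA4 at 67.6 and 69.0. The summed FPKM of the 27 factors was 934 and 945. ISL1, a marker of cardiac progenitors as well as of the sinus node, was among the 2 of 27 under 1 FPKM in both libraries.

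Glycolysis genes summed to 10083 and 9276 FPKM, 2.33% and 2.11% of the total, and all 23 were at 10 FPKM or more in both libraries. Apart from GAPDH, the highest were LDHA (the lactate dehydrogenase subunit of glycolytic tissue) at 847 and 718 and the triose phosphate isomerase TPI1 at 821 and 707. Fatty acid oxidation genes summed to 1383 and 1295 FPKM over 28 genes. The fatty acid-binding protein FABP3 gave much of this, at 463 and 367, and HADHA and HADHB (the trifunctional enzyme of β-oxidation) were at 111 and 116 and at 97.2 and 92.7. The fatty acid importer CD36 was at 2.36 and 1.65 FPKM and PDK4, which shuts glucose carbon out of the mitochondrion in the fasting adult heart, at 0 and 0.05, whereas PDK1 of the same family was at 136 and 125.

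In 8 of the 10 metabolic pairs the form of fetal, glycolytic or non-muscle tissue lay above the form of adult heart or muscle in the control libraries. SLC2A4 (the insulin-regulated glucose transporter) was below SLC2A1 by a log2 ratio of -1.79 ± 0.23, HK2 below HK1 by -3.04 ± 0.35, and PGAM2 below PGAM1 by -2.26 ± 0.22. ENO3 was below ENO1 by -0.96 ± 0.02, LDHB below LDHA by -0.26 ± 0.15 and SLC25A4 below SLC25A5 by -2.02 ± 0.19. The size of these ratios depended on the scaling by length, and in CPM they were -1.56, -1.02 and -0.28. In the 4 treated libraries LDHB lay above LDHA, with log2 ratios of FPKM from 0.14 to 1.77. In alcohol replicate 2 ENO3 was also above ENO1 (0.67) and SLC2A4 above SLC2A1 (0.25). The muscle subunits of cytochrome oxidase were far below their ubiquitous forms, COX6A2 below COX6A1 by -3.90 ± 0.10 and COX7A1 below COX7A2 by -4.49 ± 0.11. Creatine kinase went the other way, with the muscle gene CKM (279.9 and 277 FPKM) above the brain gene CKB (101 and 102) by 1.46 ± 0.03. The muscle carnitine palmitoyltransferase CPT1B exceeded CPT1A by 0.73 ± 0.52, an order that turned to -0.23 in CPM, with deposited lengths of 2707 and 5239 bases.

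The citric acid cycle and the respiratory chain were steady between the libraries. Genes of pyruvate entry and the cycle summed to 1730.0 and 1728 FPKM over 25 genes, and the 34 nuclear genes of oxidative phosphorylation to 6429 and 6394. The latter were led by the ATP synthase subunits ATP5B at 679.7 and 679.8 FPKM and ATP5A1 at 583 and 569.9. The 16 genes of energy transfer, among them the adenine nucleotide and creatine systems, summed to 1682 and 1642. Myoglobin (MB), the oxygen store of adult muscle, was at 75.7 and 82.3.

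Markers of other lineages were read next, since the culture was not sorted by any step named in the sources used here. In summed FPKM the smooth muscle list was the highest of them, at 2397 and 2091. TAGLN was at 998 and 826, ACTA2 (smooth muscle α-actin) at 507 and 580.2, and CNN1 at 417 and 279. These genes are also on in fetal cardiomyocytes. MYH11, the myosin heavy chain that defines mature smooth muscle, was at 4.77 and 4.34. The fibroblast list summed to 1235 and 1106 FPKM. Of the counts, which are not divided by length, it held 0.528% and 0.500%, above the 0.384% and 0.332% of the smooth muscle list. It was led by VIM (vimentin) at 597 and 489.6, and the fibrillar collagen genes COL3A1 (168 and 145), COL1A1 (136 and 119) and COL1A2 (96.6 and 89.5) were also high. Fibronectin (FN1) was at 161 and 183 and POSTN (periostin) at 35.1 and 37.7. The receptor gene PDGFRA was at 13.6 and 17.9, DCN (decorin) at 6.77 and 4.10, TCF21 at 0.16 and 0.78, and FAP at 0.14 and 0.43. The share of cells of each type was not measured, and in a bulk sample few cells of a type and little RNA per cell cannot be told apart.

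The remaining lineage lists had lower sums, and most endothelial, epicardial and blood genes were under 1 FPKM in both libraries. Endothelial and endocardial genes summed to 9.36 and 8.67 FPKM over 12 genes, with KDR (a receptor of vascular endothelial growth factor) the highest at 4.00 and 3.70 and CLDN5 at 0 in both. Epicardial genes summed to 12.6 and 10.6, and blood genes to 4.82 and 3.83. The blood sum covers 7 of the 12 genes on its list, since the globin genes HBA1, HBA2, HBB, HBG1 and HBG2 were not in the series table. Endoderm and liver genes came to 67.3 and 64.0 FPKM, from AFP (α-fetoprotein) at 20.4 and 20.8, EPCAM at 19.3 and 18.7 and APOA1 at 15.3 and 13.1, while the endoderm regulators FOXA2 and HNF4A were at 0 in both libraries. Pluripotency genes summed to 22.04 and 23.1, with POU5F1 (OCT4) at 5.97 and 3.95 and NANOG at 2.54 and 3.25. Of the 11 pluripotency genes in the series table, 8 were at 1 FPKM or more in both libraries and 0 at 10 or more. The neural list reached 271 and 244 through NES (nestin, also present in immature muscle) at 261 and 234.

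The skeletal muscle list summed to 342 and 323 FPKM, of which CKM, shared with the heart, gave the most. Of its 16 genes 13 were in the series table, and MYOD1, MYF5 and PAX7 were not. MYOG, the regulator of skeletal muscle differentiation, was at 0.63 and 0.89, and MYF6, MYH1 and TNNI2 were at 0 in both libraries.

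**Figure D3:**
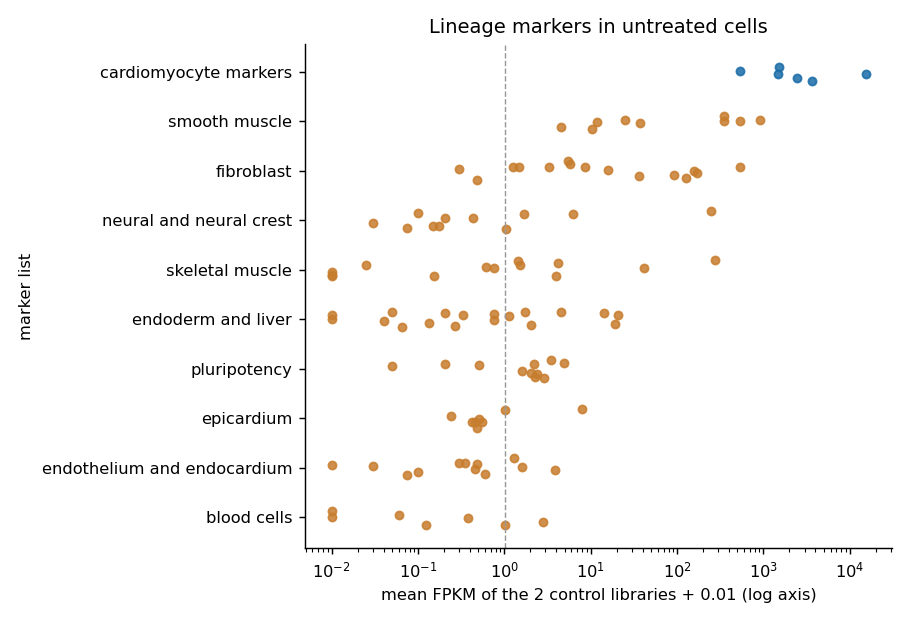
Mean FPKM of the control libraries plus 0.01 (log axis) for each gene of 10 marker lists, with a dashed line near 1 FPKM. The 6 cardiomyocyte markers lie to the right, smooth muscle and fibroblast genes spread across the range, and endothelial, epicardial and blood genes lie mostly under 1 FPKM.

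Several genes that the alcohol and losartan treatments bear on were low or not detected at rest. AGTR1, which encodes the receptor that losartan blocks, had 0 counts in both control libraries, which allows up to 0.263 and 0.264 FPKM. In the other libraries AGTR1 was at 0.09 and 0 FPKM with alcohol and at 0 and 0.18 with co-treatment. In the control libraries ACE, the enzyme that makes angiotensin II, was at 0.30 and 0.71 FPKM, and AGT (angiotensinogen) was at 17.0 and 20.0.

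Of the NADPH oxidase genes, which make superoxide, NOX4 was at 0.63 and 0.76 FPKM from 13.8 and 16.0 counts, CYBB (NOX2) at 0.45 and 0.32, and the shared subunit CYBA (p22phox) at 10.2 and 11.9. On the ethanol metabolism list, the mitochondrial aldehyde dehydrogenase ALDH2 was at 30.8 and 31.5. ADH5, a broadly expressed member of the alcohol dehydrogenase family, was at 66.9 and 65.5. Oxidation of ethanol by the cells was not measured. The liver alcohol dehydrogenase ADH1B was at 0 in both, and the ethanol-inducible cytochrome CYP2E1 was at 0.12 and 0.36, from 1 and 3 counts. The p38 kinase MAPK14, a stress kinase of the heart, was at 19.1 and 20.3 FPKM.

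The 2 control libraries had similar values for most genes. Over the 14330 genes with a mean of 1 FPKM or more, the log2 (FPKM + 1) values had a Pearson correlation of 0.966 and a Spearman correlation of 0.968 across genes, which are not independent replicates. Of these genes, 71.9% were within 1.25-fold of each other, against 66.6% for the alcohol pair and 66.5% for the co-treated pair. More than 2-fold apart were 669 genes in the control pair, 385 of them higher in control replicate 2 and 284 higher in control replicate 1. Most were low: 637 had a mean of 1 to 10 FPKM, 27 of 10 to 100, 4 of 100 to 1000, and 1, MYL2, of 1000 or more.

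The difference between the libraries ran by gene class. The comparison is of 1 library with 1 library, so no test was made. Over all genes the median log2 ratio of control replicate 2 over control replicate 1 was 0.03. Sarcomere genes had a median of -0.18, and 30 of the 36 measured at a mean of 1 FPKM or more were higher in control replicate 1. Glycolysis genes had a median of -0.12, with 21 of 23 higher in control replicate 1. Cytosolic ribosomal protein genes had a median of 0.13, with 76 of 83 higher in control replicate 2. The direction of each was the same in CPM with TMM scaling, with medians of -0.21, -0.14 and 0.11, and the ribosomal count was then 72 of 83.

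Cell cycle genes differed the most of the lists with more than 4 genes. Their median log2 ratio was 0.73, and 13 of 17 were higher in control replicate 2. BIRC5 (survivin, of the dividing cell) was at 16.4 FPKM in control replicate 1 and 38.4 in control replicate 2, TOP2A (the topoisomerase of replicating chromosomes) at 29.7 and 55.3, and CCNB1 (cyclin B1) at 25.4 and 49.7. The proliferation antigen MKI67 was at 8.02 and 14.9. The tubulin gene TUBA1B, on none of the lists, was at 761 and 1263. The 4 genes of the list that were higher in control replicate 1 were MCM2 (17.6 and 17.5 FPKM), MCM5 (20.7 and 18.1), CCND1 (18.8 and 17.2) and CCND2 (49.0 and 36.2).

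The ventricular list had a median log2 ratio of -0.16, with 9 of 12 genes higher in control replicate 1. MYL2, MYH7, NPPB and PLN were among the 9, and MYL3, IRX4 and HEY2 were higher in control replicate 2. The atrial list had a median of 0.12, with 10 of 14 genes higher in control replicate 2, as were 54.9% of all genes. NPPA and MYL7 were among the 10, and MYL4 was higher in control replicate 1. Under TMM-scaled CPM the atrial median was 0.05, with 9 of 14 genes, and the ventricular median was -0.18, with the same count. Oxidative phosphorylation genes had a median of 0.01, near that of all genes.

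**Figure D4:**
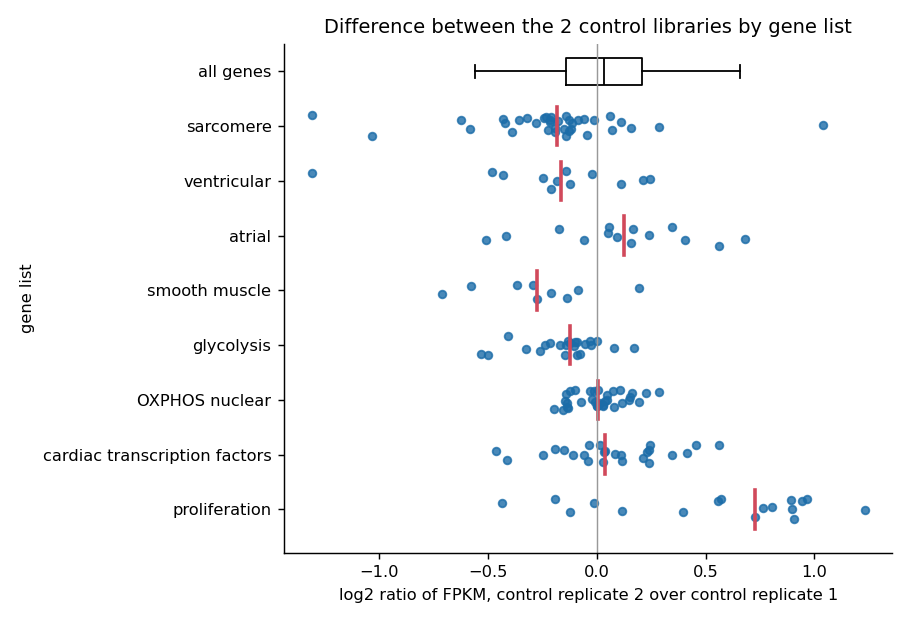
Log2 ratio of FPKM, control replicate 2 over control replicate 1, for genes with a mean of 1 FPKM or more, with 1 point for each gene of a list and a red bar at the median of the list. The box shows all genes (median 0.03, quartiles, whiskers at the 5th and 95th percentiles). Sarcomere and glycolysis genes lie mostly left of 0, and proliferation genes lie mostly right, with a median of 0.73.

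Among genes with a mean of at least 10 FPKM, the 5 with the largest ratio in favour of control replicate 1 were MIR3685, MIR4751, MIR6080, MYL2 and PRSS42 (38.9 and 15.7 FPKM). The 5 in favour of control replicate 2 were SNORD64, MIR564, MIR1181, SNORD116-4 and RN7SL1. Apart from MYL2, PRSS42 and RN7SL1 these are short RNA genes that rest on few counts. RN7SL1, an RNA of the signal recognition particle, was at 204 and 495 FPKM, and its near-identical copy RN7SL2 at 285 and 667.

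The swing of MYL2 and MYH6 was not confined to the control group. MYL2 was at 2139 and 863 FPKM in the control libraries, at 2609.9 and 821 in the alcohol libraries, and at 2478 and 2862 in the co-treated libraries. MYH6 was at 349 and 717, at 381 and 737, and at 305 and 374 in the same order. The libraries numbered 2 of the control and alcohol groups thus had low MYL2 with high MYH6, and the other 4 libraries had the reverse. ACTA1 had a different order, at 599 and 293, at 351 and 75.9, and at 151 and 198.

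The other groups served to show how far the resting levels held. These comparisons share the same control libraries. Of the 100 most abundant genes of the control mean, between 89 and 95 were also among the 100 of each treated library, against 96 and 94 for the control libraries themselves. In edgeR's quasi-likelihood test at an adjusted p under 0.05, 0 of these 100 genes were called between alcohol and control, where 0.067% of the 14926 genes tested were called (0.0603% higher and 0.0067% lower), and 20 had an unadjusted p under 0.05, where 11% of all genes did (DESeq2 called 72 genes in all, and limma 0). Between co-treatment and control 1 of the 100 was called, ANKRD1, where 0.362% of all genes were called (0.214% higher and 0.147% lower).

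The lists held 420 genes, of which 350 were tested. Between alcohol and control 0 of them were called by edgeR, where 0.067% of all genes tested were. An unadjusted p under 0.05 was found for 78 of them (22.3%), against 11% of all genes tested. Between co-treatment and control it was also found for 78 (22.3%), against 12.6% of all genes tested. The lists were chosen with earlier results of these data known, so these shares are a description and not a test. Between co-treatment and control 2 list genes were called, both lower than at rest, where 0.147% of all genes tested were called lower. ANKRD1 was at 1551 and 1062 FPKM in the control libraries, at 1114 and 524 with alcohol, and at 455 and 479.7 with co-treatment, a log2 fold change of -1.53 (SE 0.29, edgeR adjusted p = 0.0410) between co-treatment and control. ACTA2 was at 507 and 580.2 FPKM, at 337 and 203, and at 248 and 224, a log2 fold change of -1.25 (SE 0.20, edgeR adjusted p = 0.0203). Both co-treated libraries lay below both control libraries for either gene. Neither call held without co-treated replicate 1 (edgeR adjusted p = 0.217 for ANKRD1 and 0.157 for ACTA2) or without co-treated replicate 2 (0.370 and 0.349), in fits that take the lone co-treated library to vary like the other groups. The log2 fold changes were then -1.48 and -1.59 for ANKRD1 and -1.31 and -1.19 for ACTA2. The ANKRD1 call was also lost without control replicate 1 (log2 fold change -1.22, edgeR adjusted p = 0.0988). ACTA2 overlaps an antisense gene, ACTA2-AS1, listed at 254 and 212 FPKM in the control libraries, and their reads cannot be told apart without strand.

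Of the natriuretic peptides and the atrial light chains, MYL7, NPPA and NPPB had their highest values at rest without passing the test. MYL7, at 14512 and 16179.8 FPKM in the control libraries, was at 12612 and 9321 with alcohol and at 10240.5 and 11846 with co-treatment, with log2 fold changes of -0.52 (SE 0.17) in both comparisons (edgeR adjusted p = 0.273 and 0.224). NPPA, at 3622 and 4799 at rest, was at 2965 and 2363 with alcohol and at 2375 and 2966 with co-treatment, with log2 fold changes of -0.69 and -0.70 (SE 0.18 each, edgeR adjusted p = 0.168 and 0.113). NPPB, at 1721 and 1233 at rest, was at 1079 and 301 and at 456 and 365, with log2 fold changes of -1.12 (SE 0.40) and -1.90 (SE 0.41, edgeR adjusted p = 0.313 and 0.0732). For each of these 3 genes both control libraries lay above the 4 treated libraries. The pattern was not particular to them. The ventricular light chain MYL3 had it too, at 1712 and 1849 FPKM at rest. With alcohol MYL3 was at 1474 and 1178, and with co-treatment at 1205 and 1320. TNNC1, TPM1 and SMPX (on the ventricular list) also had it, whereas MYL2, MYH7 and PLN did not. MYL4 did not share this pattern, at 5719 and 5496 FPKM at rest and at 5749 and 4187 with alcohol and 4774 and 5073 with co-treatment.

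Cell cycle and glycolysis genes lay lower with alcohol than at rest without passing the test singly. Of 17 cell cycle genes, 0 were called by edgeR and 12 had an unadjusted p under 0.05. Of all genes tested, 0.067% were called and 11% had an unadjusted p under 0.05. Of the 17 cell cycle genes, 16 were lower, with a median log2 fold change of -0.51, beside -0.00326 over all genes tested. The summed FPKM of this list was 439 and 617 in the control libraries, 361 and 389 with alcohol, and 526 and 448 with co-treatment, so the control libraries differed from each other by more than control replicate 1 differed from any treated library. Of 23 glycolysis genes, 0 were called, 13 had an unadjusted p under 0.05 and 19 were lower, with a median of -0.42. Their sum was 10083 and 9276 at rest, 8579 and 6257 with alcohol, and 9364 and 9082 with co-treatment. Control replicates 1 and 2 differed in both lists, and the part of that difference in these values was not tested. Both lists were chosen with earlier results of these data known, so their counts are a description and not a test.

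**Figure D5:**
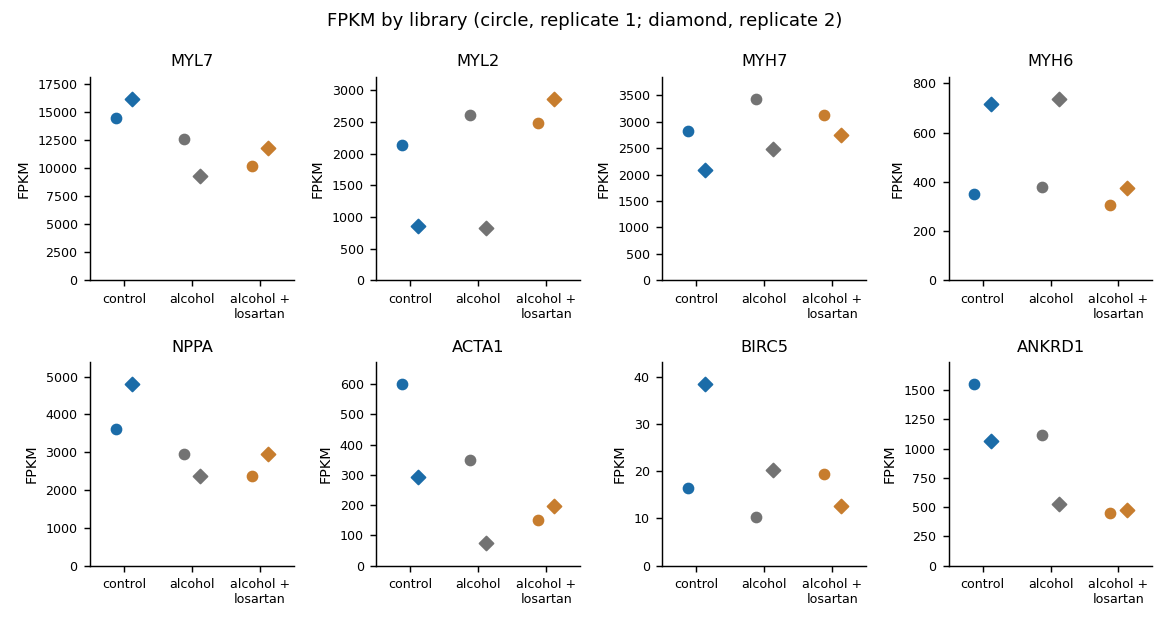
FPKM of 8 genes in each of the 6 libraries, with each axis starting at 0, a circle for replicate 1 and a diamond for replicate 2 of the control, alcohol and co-treated groups. MYL2 is low (863 and 821) and MYH6 high (717 and 737) in the control and alcohol libraries numbered 2, and ANKRD1 is lower in both co-treated libraries than in both control libraries.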

How the data were processed

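RNA sequencing libraries of the control, alcohol and co-treated groups (2 each) were grouped by the treatment label. The files deposited by the authors hold, per library and gene, an expected count (an estimate that need not be whole), the FPKM and a transcript length. The FPKM of the deposited series table was used for levels. The submitters' processing notes list HISAT2 2.0.4, Bowtie2 2.2.5, RSEM 1.2.12 and hg38 without saying what each was used for. Genes absent from a library's own table were set to 0. Levels were averaged over the control libraries, with no test. Treated groups were compared with control by edgeR 4.0.16 (R 4.3.3) with the quasi-likelihood F test, two-sided, on the expected counts rounded to whole numbers, with TMM scaling, the filter of filterByExpr, a single fit over 6 libraries, and a threshold of 0.05 after Benjamini-Hochberg adjustment. DESeq2 1.42.0 and limma 3.58.1 served as alternatives, limma on log2 (FPKM + 1) and log2 (FPKM + 0.1). The design has 2 libraries a group, so p-values measure only the spread between these libraries.

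The markers, the 30 gene lists and the 20 pairs were chosen with earlier results of these data known. Of the listed symbols, 42 were not listed in the table, 26 of them being those of the mitochondrial genome. Genes were named by rule: the 30 highest, members of lists and pairs, the 5 largest ratios on each side between the control libraries at a mean of 10 FPKM or more, list members or top 100 genes called by edgeR, and the 10 highest unlisted genes. RN7SL2 and the long non-coding RNAs other than MHRT and H19 were named after their values were seen. Promoter windows came from a RefSeq table on GRCh38.p14, with a window for 15645 genes. Values of some listed genes are not reported here.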

Additional observations from a re-analysis of the deposited data

How the results depend on the processing

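The number of genes called between alcohol and control (10 by edgeR) was 2 without a filter on low counts, 3 with only the 4 libraries compared, 72 with DESeq2, and 0 and 2 with limma at a pseudocount of 1 and 0.1. It ranged from 1 (without alcohol replicate 2) to 220 (without alcohol replicate 1) when a library was left out, with 64 after dropping control replicate 1 and 3 after dropping either co-treated library. Between co-treatment and control (54) the same settings gave 15, 158, 128, and 2 and 3, with a range from 2 (without co-treated replicate 2) to 184 (without alcohol replicate 1), while dropping alcohol replicate 2 gave 151, co-treated replicate 1 gave 4 and control replicate 2 gave 29. DESeq2-type size factors left 10 and 54. The causes were not tested. With the replicate number as a block, 48 and 136 genes were called. The deviations of libraries with the same number correlated at 0.114 (control and alcohol), -0.0162 (control and co-treated) and 0.0412, so the numbers were not taken as pairing. The ANKRD1 and ACTA2 calls were lost in 7 and 5 of 13 alternatives, no filter and both limma fits among them.

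The number of genes at 1 FPKM in both control libraries (13632) was 6126 at 10 FPKM. The share of the 100 most abundant genes (33.2%) was 20.6% in CPM and 31.6% without short RNA genes. The number of genes more than 2-fold apart between the control libraries (669) was 32 at a mean of 10 FPKM or more. In CPM the log2 ratio turned from 0.92 to -1.97 for TNNI3 over TNNI1 and from 0.73 to -0.23 for CPT1B over CPT1A, and 11 other pairs moved by more than the spread of the control libraries without a change of sign. The check of list directions by TMM-scaled counts was chosen after seeing the data. The depth of about 5051448 counts or fewer per library limits statements on genes near 0, and 2 control libraries limit any estimate of spread.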

Other observations

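Genes that RefSeq types as long non-coding held 3.25% of the summed FPKM, and 1071 of 2952 of them reached 1 FPKM in both control libraries. After MHRT and H19, the highest were LRRC75A-AS1 at 312 and 333 FPKM, ACTA2-AS1 at 254 and 212, VIM-AS1 at 189 and 164, GAS5 (a host gene of snoRNAs) at 184 and 161, LINC00881 at 178 and 118, and TTN-AS1 at 121 and 117. LINC00881 was higher in the co-treated libraries, at 305 and 342 FPKM, than in the control libraries. MALAT1, a nuclear long non-coding RNA, was at 93.9 and 92.7. Several of these genes overlap a coding gene on the other strand, and without strand their reads cannot be told apart.

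Secreted factors other than the natriuretic peptides were also present at rest. MDK (midkine, a heparin-binding growth factor of the embryo) was at 595 and 592 FPKM, IGF2 (insulin-like growth factor 2, imprinted with H19) at 194 and 181, FSTL1 at 162 and 163, BMP5 at 93.8 and 91.0 and VEGFA (a growth factor of blood vessels) at 80.0 and 69.2. BMP10, which is made by the trabecular and atrial myocardium, was at 8.43 and 6.31, and NRG1 (neuregulin, a signal from the endocardium) at 0.32 and 0.76. Immediate early genes were low, with FOS at 1.56 and 0.83 FPKM and EGR1 at 6.22 and 3.47, and 9 of the 10 stress and immediate early genes with a mean of 1 FPKM or more were higher in control replicate 1.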
